A study of Mus musculus with 10 samples.

Results

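The lungs described here are those of the 5 unexposed female C57BL/6 mice of a drinking-water study, and they make up 5 of the 10 arrays of the series. They were chosen by their titles, which give a dose of 0 ppm. C57BL/6 is an inbred laboratory strain, so the animals share nearly all of their genome. The mice were 8 weeks old when the study began and drank distilled deionized water for 12 weeks; the other 5 mice, which had arsenic in their water, enter no value below. RNA of the whole lung of each animal was read on 1 Affymetrix oligonucleotide array of 45101 probe sets, and 18194 genes had at least 1 probe set of their own in the annotation. The labels give each animal its own number, so the 5 values of a gene come from separate animals, called animals 1 to 5 here. The field on treatment of animal 4 names a control without a dose, and its title gives the dose. Values are the deposited log2 signals, and errors are SDs over the 5 animals.

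The lung exchanges gas across a thin sheet of flat alveolar type 1 cells and capillary endothelium, while cuboidal alveolar type 2 cells make the surfactant that keeps the air spaces open. The conducting airways are lined by club cells, which secrete protective proteins and carry most of the drug-metabolising enzymes of the mouse lung, and by ciliated cells that move mucus. Alveolar macrophages clear particles, fibroblasts and pericytes hold the tissue, and blood cells of the vessels are part of any whole-lung RNA. In such bulk tissue, fewer cells of a type and less RNA per cell cannot be told apart.

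The 5 arrays were close to each other. Their medians lay between 4.19 and 4.26, and any 2 arrays correlated over all probe sets at 0.993 to 0.997. The 18 bacterial and phage hybridisation controls had SDs of 0.0639 to 0.245, and the 24 poly-A controls had SDs of 0.103 to 0.540. The 3′ probe set of Actb stood above its 5′ probe set by 0.578 to 0.651 in every animal. Precision is limited by there being 5 arrays, and there is 1 group, so no test between groups was made.

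Of the 18194 genes, 11312 (62.2%) had a mean above 4.23, the median of all values on the 5 arrays, which serves as the level threshold. The largest class, 5389 genes, lay at or below a level of 3. Another 4040 genes lay between 8 and 10, 2258 between 10 and 12 and 716 between 12 and 14, and 139 genes exceeded 14. Genes that a female lung should not express mark the floor. None of 7 Y-linked genes passed the threshold, from Uty at 3.55 ± 0.10 through Sry at 3.08 and Eif2s3y at 2.98 to Zfy2 at 2.64, Usp9y at 2.53, Uba1y at 2.48 and Kdm5d at 2.44. None of 39 olfactory receptor genes, 15 lens and photoreceptor genes and 14 oocyte and testis genes passed either, and the highest gene of all 75 was Rom1, a photoreceptor membrane protein, at 3.89. Xist, the RNA that coats the inactive X chromosome of females, read 13.10, 13.10, 13.31, 12.87 and 12.96 in animals 1 to 5, which matches the sex on the labels in all 5 animals.

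The most abundant transcripts were those of secreted airway and alveolar proteins, of iron storage and of the translation machinery. Scgb1a1, the uteroglobin that club cells secrete, was the highest gene at 16.27 ± 0.05 (SD, n = 5), with 16.25, 16.21, 16.31, 16.28 and 16.32 in animals 1 to 5. Sftpc, the surfactant protein made only by alveolar type 2 cells, read 16.04, 16.00, 16.18, 16.05 and 16.16. Lysozyme followed with Lyz1 at 16.26 and Lyz2 at 16.00. These 2 genes are near-identical and the probe set of Lyz1 carries the suffix of sets that bind related transcripts, so their split is uncertain. Fth1, the heavy chain of ferritin, and the growth-related protein Tpt1 both stood at 15.97.

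The order continued with Rps29 at 15.81, the actin-binding thymosins Tmsb4x at 15.79 and Tmsb10 at 15.52, and the cytoskeletal Actb at 15.68. Ribosomal protein genes were frequent: 15 of the 50 highest genes encode cytosolic ribosomal proteins, among them Rps20 at 15.67, Rpl13a at 15.65, Rps28 at 15.54 and Rplp0 at 15.53. Surfactant protein Sftpa1 stood at 15.64, and the lung chemokine Cxcl15 at 15.41. Club-cell genes were Cyp2f2 at 15.61 ± 0.09, the cytochrome P450 that activates naphthalene, the carbonyl reductase Cbr2 at 15.51, the secretoglobin Scgb3a2 at 15.49 and the retinal dehydrogenase Aldh1a1 at 15.37. Ager, the receptor that marks type 1 cells, stood at 15.48 ± 0.09, and the elongation factor Eef1a1 at 15.43. The 25 highest genes ended with B2m at 15.35, the actin-severing Gsn at 15.25 and the calcification inhibitor Mgp at 15.20.

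**Figure D1:**
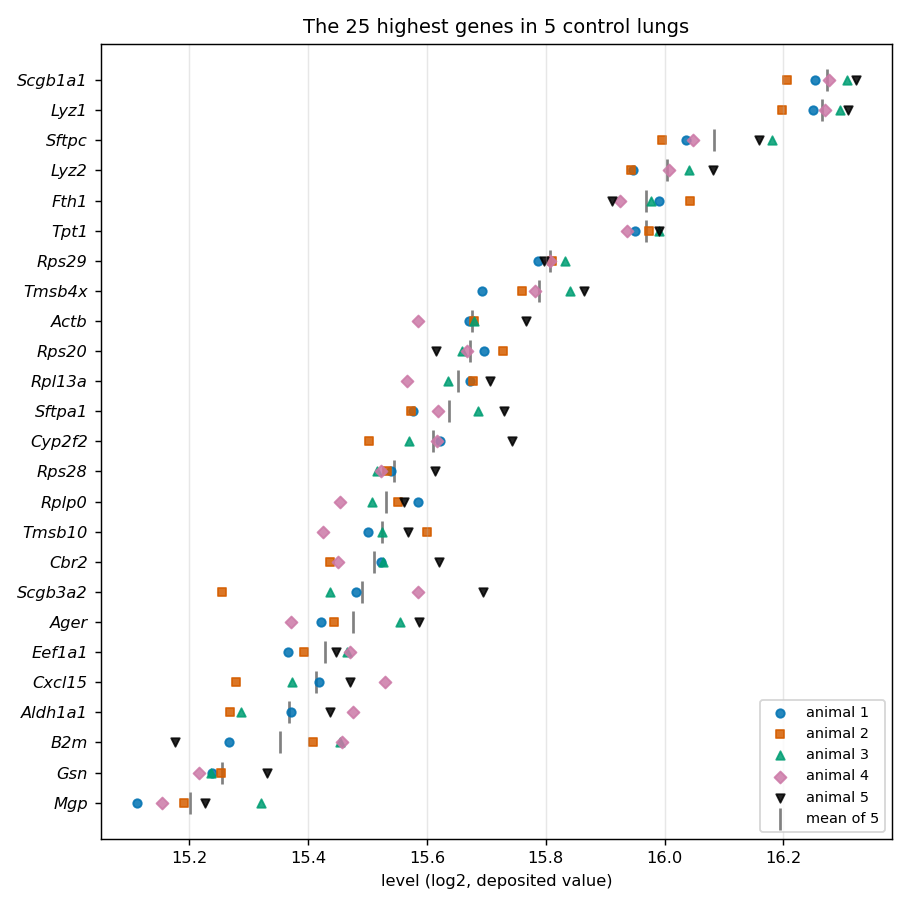
Level (x axis, deposited log2 value) of the 25 highest genes (y axis) in each of the 5 control lungs; symbols are animals and grey bars are means of 5. Each gene keeps close to its mean in all animals, and neighbours in the order overlap, from Scgb1a1 at 16.27 down to Mgp at 15.20.

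This is an order of array signals and not of molecules, since probe sets differ in how strongly they bind. Of the 24 neighbouring pairs among the 25 genes, 21 had means that differed by less than the larger of their SDs. The 50th gene, the class I histocompatibility gene H2-D1, had 14.79 and the 51st, the desaturase Scd1, had 14.78. SDs among the 50 highest genes ran from 0.0169 to 0.181 with a median of 0.0676, against 0.184 over the 11312 genes above the threshold. The highest single value on the 5 arrays was 16.32.

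Probe sets that name several genes stand outside this order, and they hold part of the blood signal. Of the 100 highest probe sets, 54 named a single gene, 31 named more than 1 and 15 had no entry. The strongest probe set shared by the adult alpha-globin genes Hba-a1 and Hba-a2 read 15.99, 16.02, 16.15, 16.04 and 16.13, and only 3 genes of the order stood above it. A probe set shared by 4 adult beta-globin symbols read 14.82 ± 0.11. By contrast, the set named for Hba-a1 alone read 2.54 and that named for Hba-a2 alone 1.78. The ribosomal protein gene Rps16 showed the same split, with 1.92 on its own probe set and 16.17 ± 0.03 on a set it shares with Rps16-ps2 and LOC100862433. A low value on this array can therefore belong to a probe set rather than to a transcript.

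All 14 measured alveolar type 2 genes exceeded the threshold, with a median level of 14.40, and all 15 type 1 genes, with a median of 13.02. The lowest type 2 member was Nkx2-1, the transcription factor of lung identity, at 6.23 ± 0.21. Type 1 genes were led by Ager, by Cav1, the coat protein of caveolae, at 14.94 ± 0.12 and by Emp2 at 14.70 ± 0.07, and the lowest was the anchoring protein Akap5 at 10.99 ± 0.25. Club-cell genes had a median of 14.39, with 13 of 14 above the threshold. All 15 ciliated-cell genes passed, from the lipid-transfer gene Sec14l3 at 14.71, Tppp3 at 13.41 and the tubulin Tubb4b at 13.18 down to the dynein Dnah5 at 4.36 ± 0.48.

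General endothelial genes (20 of 20 above the threshold, median 12.02) were led by Tmem100 at 13.75 ± 0.31, the adrenomedullin receptor Calcrl at 13.42 ± 0.38 and the adhesion molecule Icam2 at 12.86 ± 0.25. Genes of capillary subtypes (10 of 10, median 11.59) included Cd93 at 13.79, the carbonic anhydrase Car4 at 13.07 and Plvap, which forms the diaphragms of fenestrae, at 12.89; the lowest was the ligand Apln at 9.06. Larger vessels and lymphatics had 10 of 13 members above the threshold, with the clotting factor Vwf at 13.54 ± 0.11, the lymphatic receptor Lyve1 at 12.62 ± 0.33 and Efnb2 of arteries at 11.30. Prox1, the master factor of lymphatic identity, read 2.90.

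Fibroblast genes (20 of 20, median 11.64) ran from Gsn, the methyltransferase Inmt at 15.13 ± 0.06 and the lung mesenchyme factor Tcf21 at 13.42 ± 0.21 to Pi16 of adventitia at 6.62 ± 0.32. Pericyte genes had 9 of 10 members above the threshold, with the guanylate cyclase subunits Gucy1b1 at 12.29 and Gucy1a1 at 12.13. Smooth muscle genes had 9 of 11, led by the actin Acta2 at 12.66 ± 0.17. Mesothelial genes had 9 of 10, led by the keratin Krt19 at 12.81 ± 0.20.

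Resident and circulating blood cells were visible at lower levels. Alveolar macrophage genes (16 of 16, median 9.92) began with the chitinase-like Chil3 at 14.41 ± 0.19 and ended with the scavenger receptor Marco at 6.90 ± 0.15. Monocyte genes had 7 of 9 members above the threshold, interstitial macrophage genes 8 of 9, neutrophil genes 11 of 13, B-cell genes 11 of 13 and dendritic-cell genes 6 of 11. T-cell genes had 7 of 15, with the chemokine receptor Ccr7 at 7.68 and Cd3d of the T-cell receptor complex at 7.49. Cytotoxic cells had 5 of 12, with granzyme Gzma at 9.74 ± 0.53 and the chemokine Ccl5 at 8.34 ± 0.67.

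Rare cell types were at the floor for most of their markers. None of 7 neuroendocrine genes and none of 4 eosinophil genes passed the threshold, with highest members Syp, a vesicle protein, at 3.86 and the cytokine receptor Il5ra at 3.07. Only 2 of 10 mast-cell and basophil genes passed, the histidine decarboxylase Hdc at 11.37 and the factor Gata2 at 10.33, while the mast-cell protease Cma1 read 1.96. Goblet cells showed 3 of 7, Tff2, Clca1 and the disulphide isomerase Agr2 at 6.05, with the mucin Muc5ac at 1.70. Basal cells showed 2 of 7, Dapl1 at 4.88 and the water channel Aqp3 at 4.84, with Trp63, the basal-cell regulator, at 2.92. Cartilage showed 1 of 8, the secreted protein Cytl1 at 10.24, and no liver gene of 11 passed.

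**Figure D2:**
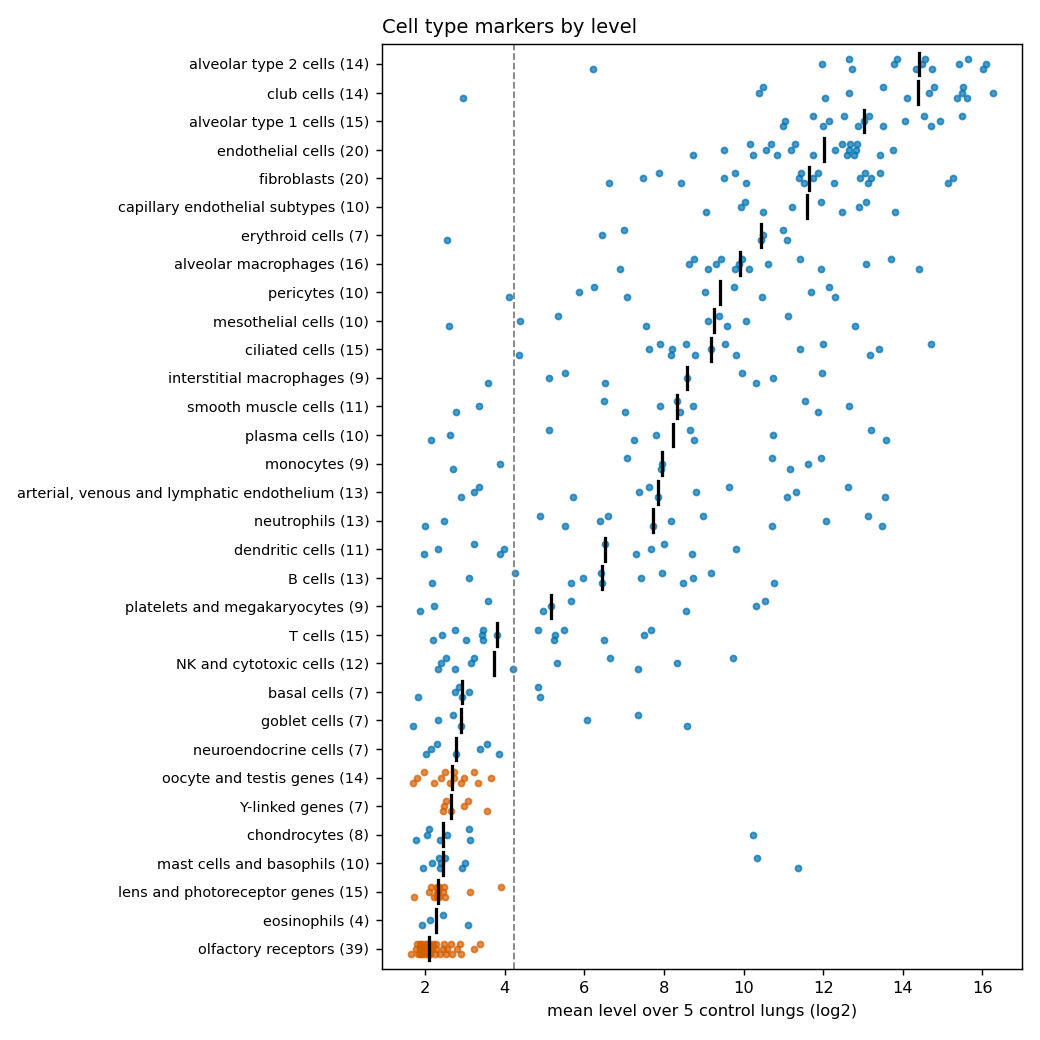
Mean level over the 5 control lungs (x axis, log2) of each measured gene of 28 cell type lists (blue) and 4 lists of genes not expected in a female lung (orange), with the number of genes in brackets; black bars are list medians and the dashed line is the threshold of 4.23. Alveolar and club-cell lists sit highest, with medians of 14.40 and 14.39 for type 2 and club cells, and eosinophil and neuroendocrine genes sit among the genes not expected.

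Most genes differed little between unexposed lungs. The median SD over the 11312 genes above the threshold was 0.184, with quartiles of 0.123 and 0.270, and 552 genes (4.88%) had an SD above 0.5. There were 61 genes above an SD of 1 and 17 above 2. The share above 0.5 was 13.6% for genes between the threshold and a level of 6, 7.54% between 6 and 8 and 2.82% between 8 and 10. Above 14 it held for 2 of 139 genes, Gsto1 at 14.11 ± 0.60 and the mitochondrially encoded ND5 at 14.10 ± 0.56, both named after their values were seen. Over all 18194 genes, 654 or 3.59% had an SD above 0.5, and counts for gene lists, which take every measured member, are read against that share. Lists and members were chosen with earlier results of these data known, so a count above that share describes the list and is no test.

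**Figure D3:**
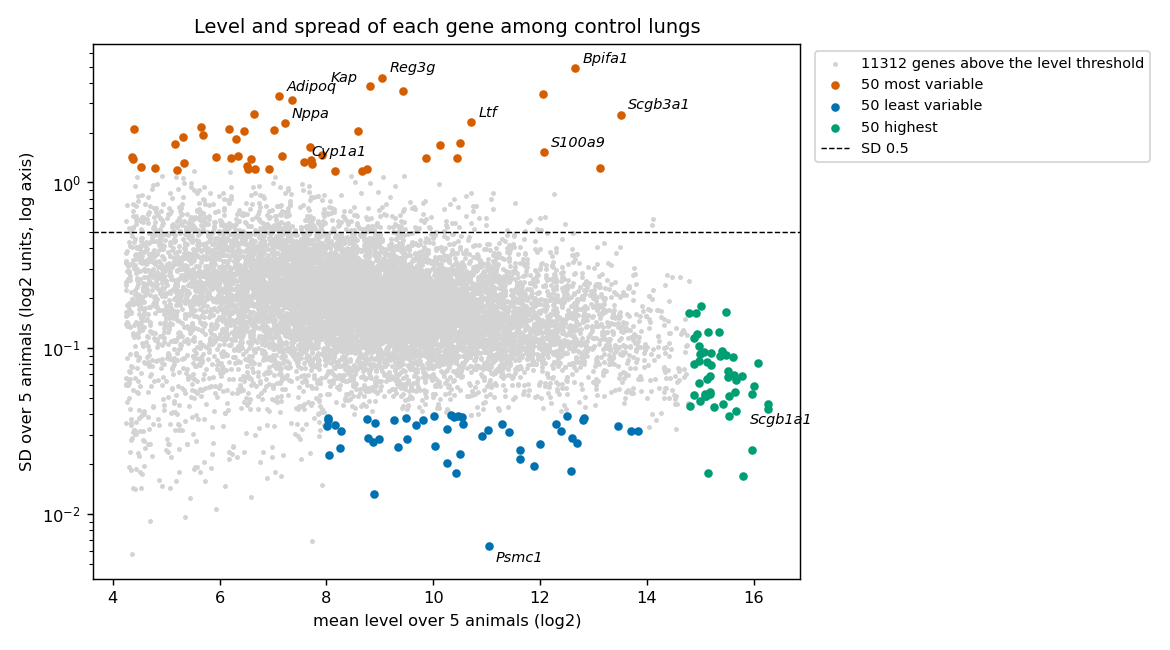
SD over the 5 animals (y axis, log2 units on a log axis) against mean level (x axis, log2) for the 11312 genes above the threshold (grey), with the 50 most variable (orange), 50 least variable (blue) and 50 highest genes (green); the dashed line is an SD of 0.5. Bpifa1 combines a mean of 12.65 with an SD of 4.88, while Scgb1a1 at 16.27 has an SD of 0.05.

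The 50 most variable genes had SDs from 1.17 to 4.88, and the cut fell between the protease Mmp9 (1.167) and the Wnt-binding Sfrp2 (1.165). Of these 50 genes, 28 belong to a list used here, among them lists of airway secretion, neutrophils, fat, heart muscle and kidney, and 22 belong to none. Animal 4 had the highest value in 34 of the 50 and animal 2 the lowest in 29, with both true of 23 genes. Over all genes above the threshold, animals 1 to 5 were highest in 9.57%, 27.8%, 12.9%, 23.2% and 26.4%. They were lowest in 14.8%, 17.0%, 21.3%, 28.6% and 18.2%. Counts by animal for the lists below are to be read against these shares, which leave out genes under the threshold. Without animal 2, 32 of the 50 stayed among the 50 most variable, and without any other single animal 39 to 47.

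The gene with the largest SD was Bpifa1 (SPLUNC1), an abundant antimicrobial and surface-active airway protein. It read 15.57, 4.10, 13.32, 15.76 and 14.53 in animals 1 to 5. It was thus among the strongest transcripts in animals 1 and 4 and below the threshold in animal 2, and its SD without animal 2 was 1.12. Its relative Bpifb1 read 13.50, 6.09, 12.53, 14.40 and 13.76. Reg3g, a lectin that kills Gram-positive bacteria, read 11.47, 1.75, 8.78, 12.37 and 10.83.

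Animal 2 was also lowest for the secretoglobin Scgb3a1, with 14.42, 8.98, 14.21, 15.03 and 14.93 and an SD of 0.40 without animal 2. The iron-binding lactoferrin Ltf read 12.54, 7.25, 9.81, 12.97 and 10.99. The gel-forming mucin Muc5b read 11.03, 7.57, 10.34, 11.80 and 11.73. Of the goblet-cell genes, Clca1, a secreted regulator of chloride channels, read 8.20, 2.62, 6.80, 7.88 and 11.27, and the trefoil peptide Tff2 read 8.84, 5.24, 8.44, 9.88 and 10.51. For Clca1 and Tff2 animal 5 was highest. They were the 2 of 7 goblet-cell genes with an SD above 0.5, and the median SD of the 7 was 0.04. Without animal 2 the SDs were 0.78 for Bpifb1, 1.52 for Reg3g, 1.45 for Ltf, 0.68 for Muc5b, 1.92 for Clca1 and 0.95 for Tff2. The zymogen-granule protein Gp2 (SD 2.58), Oit1 (1.82), the calmodulin-like Calml3 (1.63), the retinol-oxidising Adh7 (1.46) and the cadherin Cdh26 (2.09) were lowest in animal 2 as well.

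Other genes of the same epithelium did not share this spread. Within the 14 club-cell genes, 5 had an SD above 0.5, Bpifa1, Scgb3a1, Muc5b, the keratin Krt15 (1.62) and the glutathione transferase Gsto1 (0.60), and the median SD was 0.20. Krt15 had the lowest mean of the list, 2.94, which is under the level threshold. Scgb1a1, Cyp2f2, Cbr2, Scgb3a2 and Aldh1a1 had SDs of 0.05 to 0.17. Their levels of 15.37 to 16.27 are near the highest value on the arrays, 16.32, and all 139 genes above 14 had a median SD of 0.0803. Whether the top of the scale held down the spread of these 5 genes was not tested. Of 17 acute-phase and mucosal defence genes, 7 exceeded 0.5, while haptoglobin Hp stayed at 14.67 ± 0.13 and lipocalin Lcn2 at 13.48 ± 0.16. Ciliated-cell genes had 6 of 15 above 0.5, and animal 2 was lowest in 12 of the 15 and animal 5 highest in 11. The ciliary Fam183b read 9.38, 9.08, 9.34, 10.56 and 10.67, and the dynein light chain Dynlrb2 11.64, 11.38, 11.65, 12.61 and 12.71. Both genes were higher in animals 4 and 5 than in the other 3. In animal 2, heart-muscle transcripts and several fat transcripts were also lowest, and most neutrophil transcripts were highest, as given below. Their part in the airway values was not tested.

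The 100 bases before the annotated start are shown for 5 of the variable genes, chosen because they share a motif there. They are also shown for 2 stable genes that lack it, Psmc1 and Tpt1. Because the 5 were chosen for the motif, the difference between the 5 and the 2 is no result. No fat, heart or mesothelial gene is among them. The sequences are from RefSeq (GRCm38.p6), read 5′ to 3′ on the gene's strand and ending at the base before the start. Capitals mark TATAAA, the letters of the core TATA box, searched on this strand only.
Bpifa1, chr2:154142780-154142879, plus strand: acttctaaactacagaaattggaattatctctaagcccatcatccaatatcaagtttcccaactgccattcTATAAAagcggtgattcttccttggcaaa
Reg3g, chr6:78468875-78468974, minus strand: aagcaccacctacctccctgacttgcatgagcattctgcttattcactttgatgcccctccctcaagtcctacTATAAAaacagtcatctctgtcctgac
Kap, chr6:133853668-133853767, minus strand: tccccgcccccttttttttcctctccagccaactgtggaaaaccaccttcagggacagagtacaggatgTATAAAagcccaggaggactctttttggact
S100a8, chr3:90668971-90669070, plus strand: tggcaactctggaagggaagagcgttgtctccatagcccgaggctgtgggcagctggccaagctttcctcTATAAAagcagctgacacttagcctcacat
Cyp1a1, chr9:57697513-57697612, plus strand: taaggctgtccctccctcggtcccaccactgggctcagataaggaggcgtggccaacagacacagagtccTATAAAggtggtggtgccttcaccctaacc
Psmc1, chr12:100110102-100110201, plus strand: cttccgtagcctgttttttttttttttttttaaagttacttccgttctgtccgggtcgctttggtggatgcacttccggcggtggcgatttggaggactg
Tpt1, chr14:75845156-75845255, plus strand: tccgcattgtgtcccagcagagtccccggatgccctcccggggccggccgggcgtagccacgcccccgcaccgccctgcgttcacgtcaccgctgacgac

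In the 5 variable genes shown the motif began 27 to 31 bases before the start. Of the 9152 genes above the threshold with a promoter in the RefSeq table, 171 (1.87%) held TATAAA in the same 100 bases. In the whole window of the table, 250 bases before and 50 after the start, 418 (4.57%) held it, and the median GC content was 61.0%. Among the 50 least variable genes, 42 had a promoter, 1 of which held the motif (2.38%), with a median GC content of 62.8%. Among the 50 highest genes, 40 had one, 7 of them with the motif (17.5%). Only 38 of the 50 most variable genes had one (76%), under the 80% required here to describe a set. A match of letters is a description and not a site.

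Neutrophil genes ran the other way, highest in animal 2. The subunits of calprotectin, the calcium-binding protein that fills the neutrophil cytosol, were S100a8 with 12.36, 14.97, 13.80, 12.21 and 12.29 and S100a9 with 10.86, 14.40, 12.82, 11.09 and 11.17. Animal 3 came second for both, and animals 1, 4 and 5 lay close together below it; without animal 2 the SDs of S100a8 and S100a9 were 0.76 and 0.90. The collagenase Mmp8 read 5.35, 8.88, 6.77, 6.14 and 5.80, and the receptor Csf3r for the neutrophil growth factor read 6.60, 9.67, 8.63, 6.86 and 6.81. Interleukin 1 beta (Il1b) read 8.44, 10.35, 9.33, 8.45 and 8.30, named after its values were seen.

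Of 13 neutrophil genes, 8 had an SD above 0.5 and 10 were highest in animal 2. The exceptions were Ltf and Lcn2, which airway epithelium also expresses, and Camp; Ltf was lowest in animal 2. The granule genes Camp at 2.01 and Ngp at 2.48 (the latter named after its values were seen) stayed at the floor in all animals. The cystatin Stfa2l1 (3.77, 7.82, 5.91, 4.00 and 4.33) showed the same order as S100a9 at its upper end. The chemokine Cxcl1, which attracts neutrophils, read 8.25 in animal 2 and 2.91 to 3.75 in the others, with a mean below the threshold.

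The mean of the 12 white fat genes was highest in animals 1 and 4, at 8.36 and 8.28, and lowest in animal 2, at 6.92. Single genes were less uniform. Of the 12, 5 were highest in animal 1, 3 in animal 5 and 2 in animal 4. The lowest value was in animal 2 for 6 of them and in animal 3 for 4. The adipocyte hormone Adipoq read 9.99, 1.93, 6.54, 10.05 and 7.08, and the carbonic anhydrase Car3, abundant in fat and slow muscle, 12.41, 3.64, 9.32, 12.36 and 9.43. The fatty-acid carrier Fabp4, which is in the macrophage list, read 11.56, 8.24, 8.90, 12.14 and 9.84. The hormone Retn read 7.67, 4.45, 5.04, 7.21 and 5.30. Without animal 2 the SD of Adipoq was 1.87 and that of Car3 1.74. Animal 2 was lowest for each of these 4 genes, of which Car3 and Fabp4 are not in the list of fat genes. Of 12 white fat genes, 7 had an SD above 0.5, among them Thrsp (1.20, and 0.42 without animal 1, where it was highest) and Pck1 (1.20, and 0.27 without animal 4, where it was highest). Leptin (Lep) stayed at 2.02 ± 0.01, and Scd1 and Fasn, lipid-synthesis genes that type 2 cells also use, had SDs of 0.25 and 0.16. Of 10 brown fat genes, 3 exceeded 0.5, and Ucp1, the heat-producing uncoupler, read 1.91.

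Heart-muscle genes were lowest in animal 2 for all 16 measured members and highest in animal 4 for 14. Nppa, the atrial natriuretic peptide, read 8.17, 3.82, 7.55, 9.99 and 6.56. The atrial light chain Myl7 read 11.07, 9.19, 10.87, 11.35 and 11.06, so that animal 2 stood apart while the other 4 lay together. Sln, an inhibitor of the calcium pump, read 8.40, 6.69, 8.59, 9.67 and 8.92, and Csrp3 6.95, 5.37, 7.02, 8.35 and 7.48. Actc1, the cardiac actin, was the highest member at 11.77 ± 0.58, and Mybpc3 the lowest at 2.63. Of the 16 genes, 12 had an SD above 0.5, and 5 without animal 2. Without animal 2 the SD of Nppa was 1.44 and that of Myl7 0.20. Myoglobin (Mb, 1.17) and the muscle protein Smpx (1.44) were also lowest in animal 2 and highest in animal 4, with SDs of 0.44 and 0.64 without animal 2, while Myh7 and Mylpf of the skeletal muscle list had SDs of 0.21 and 0.09.

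Transcripts named for kidney were near the floor in animal 1 and highest in animal 4. Kap, an androgen-regulated protein of the proximal tubule, read 2.26, 9.79, 10.73, 12.12 and 9.21. Umod, the urinary protein of the thick ascending limb, read 3.45, 6.17, 7.59, 8.94 and 6.14. The gluconeogenic Fbp1 read 2.61, 6.26, 7.13, 8.16 and 6.70, and the fatty-acid transporter Slc27a2 3.90, 6.74, 8.06, 9.48 and 6.88. Without animal 1 the SDs were 1.27 for Kap, 1.34 for Umod, 0.81 for Fbp1 and 1.28 for Slc27a2. For these 4 genes the order of animals 1, 3 and 4 was the same, with animal 3 second to animal 4.

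Of 27 kidney genes, 13 exceeded the level threshold, 10 had an SD above 0.5 (6 without animal 4), and 18 were highest in animal 4 and 12 lowest in animal 1. Among all genes above the threshold, animal 4 was highest in 23.2% and animal 1 lowest in 14.8%. The kidney counts also take in members near the floor, where the order of animals says little. There, for example, 34 of 39 olfactory receptor genes were highest in animal 5. Some members of the kidney list are lung genes in their own right, such as Cyp4b1 at 14.77 ± 0.05. Cyp2e1 had an SD of 1.09 with the lowest value in animal 2. Others stayed at the floor in each animal, among them the podocyte gene Nphs1 at 2.29, the salt transporter Slc12a3 at 2.13 (both named after their values were seen) and Pvalb at 1.93. Genes of the 50 outside the list with animal 1 lowest and animal 4 highest included the trypsin inhibitor Spink1 (2.15), the aminotransferase Aadat (1.93) and the amino-acid transport partner Cltrn (1.88). The others were Hao2 (1.41) and Ugt3a2 (1.38), both named after their values were seen. Albumin (Alb) read 4.55 in animal 4 and 2.22 to 2.26 in the others.

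**Figure D4:**
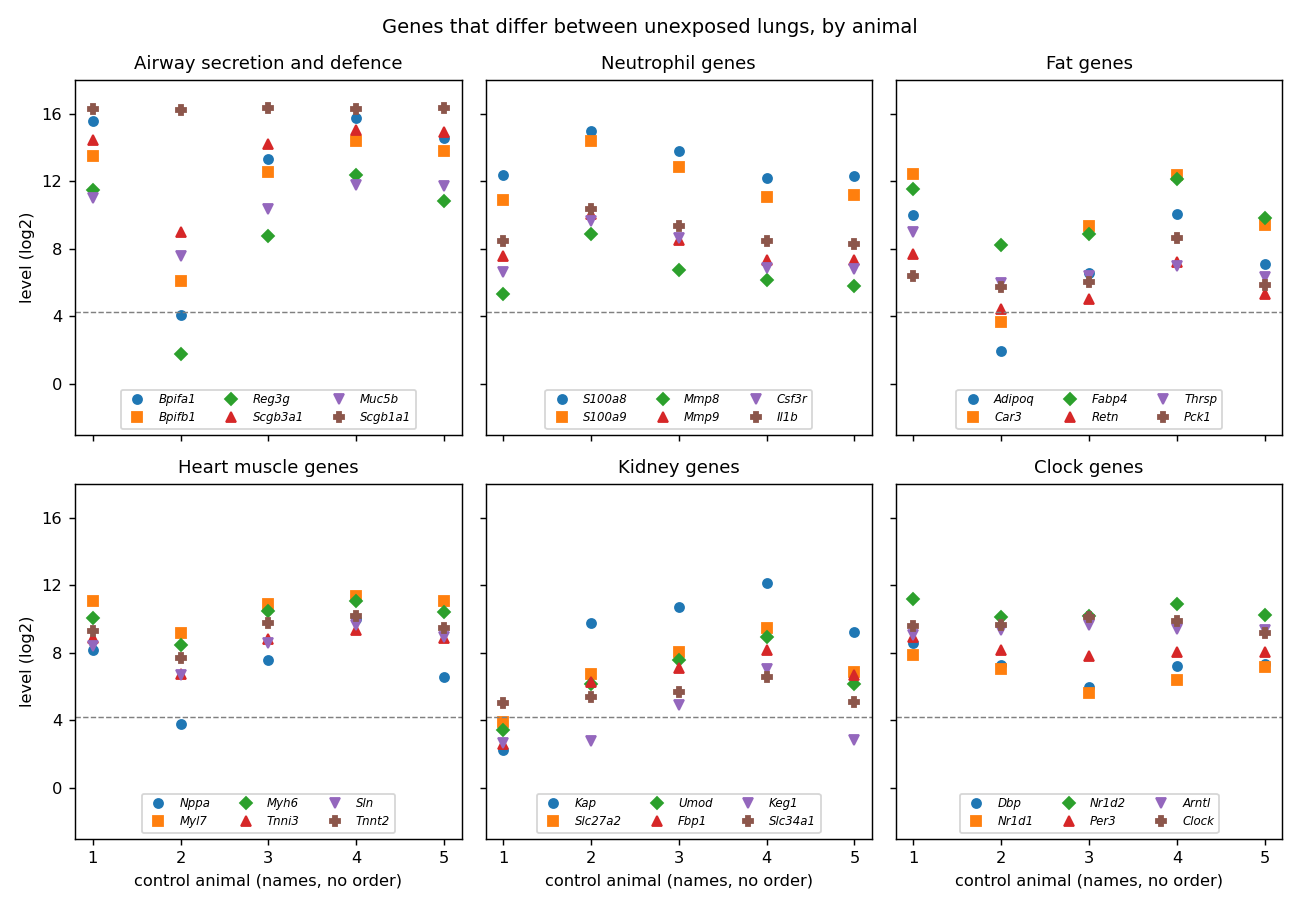
Level (y axis, log2) of 6 genes of each of 6 groups in control animals 1 to 5 (x axis; the numbers are names and carry no order), with the threshold of 4.23 as a dashed line. In animal 2 the airway, fat and heart genes shown are lowest, Scgb1a1 (16.21) by little, and the neutrophil genes highest, and the kidney genes are lowest in animal 1, where Kap reads 2.26.

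Of 10 mesothelial genes, which mark the pleural lining, 6 had an SD above 0.5; all 6 were lowest in animal 3 and highest in animal 4, the animal in which heart and kidney genes were highest too. The surface glycoprotein mesothelin (Msln) read 9.97, 9.58, 8.30, 10.29 and 9.72, the repeat protein Lrrn4 9.58, 9.12, 7.91, 9.83 and 9.10, and the uroplakin Upk3b 11.35, 11.23, 9.96, 11.79 and 11.30. Animal 3 was separated from the other 4 by over 1 log2 unit for each, and without animal 3 only 1 of the 10 genes had an SD above 0.5. The mucin Muc16 (CA125) read 5.91, 4.53, 3.90, 7.28 and 5.06.

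Of 13 B-cell genes, 7 had an SD above 0.5, with a median SD of 0.51, a largest SD of 0.73 and 8 of the 13 highest in animal 1. Ighm, the heavy chain of IgM, read 11.66, 10.84, 10.12, 9.93 and 11.21, and the signalling partner Cd79a, named after its values were seen, 8.57, 8.57, 7.53, 7.35 and 7.70. Of 21 immunoglobulin genes, 9 exceeded 0.5, among them Iglv1 (1.20). Probe sets of immunoglobulin segments bind several segments, so single ones are uncertain. Jchain, which joins IgA and IgM, read 9.02, 8.21, 8.06, 7.93 and 9.99.

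Antigen-presentation genes were highest in animal 2 for 13 of 15 members and lowest in animal 4 for 11, and 4 had an SD above 0.5 (1 without animal 2). Among genes above the threshold, animal 2 was highest in 27.8% and animal 4 lowest in 28.6%. The class II regulator Ciita read 5.20, 6.11, 4.91, 4.37 and 4.76, and the peptide transporter Tap1 had 9.42 in animal 2. The class II chaperone Cd74, named after its values were seen, had 13.79 ± 0.24. Of 22 interferon-stimulated genes, 5 had an SD above 0.5 (2 without animal 2) and 10 were highest in animal 2. The chemokine Cxcl10 read 6.11 in animal 2 and 3.93 to 4.08 in the others, and the GTPase Igtp 10.26, 11.42, 10.54, 9.77 and 9.54.

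Some clock genes differed between animals. Dbp, an output gene of the clock, read 8.58, 7.29, 5.97, 7.20 and 7.32, and Nr1d1, the repressor REV-ERB alpha, 7.85, 7.03, 5.65, 6.41 and 7.15. Both were highest in animal 1 and lowest in animal 3. The repressor Nr1d2, the highest clock gene at 10.52 ± 0.48, read 11.16, 10.12, 10.18, 10.91 and 10.24. Arntl (BMAL1), which Nr1d1 represses, read 9.05, 9.35, 9.65, 9.43 and 9.38 (named after its values were seen), lowest in animal 1 and highest in animal 3. Of 20 clock genes, 3 had an SD above 0.5, and 5 without animal 3; 7 were highest in animal 1, 5 in animal 3 and 7 in animal 5. The animal with the highest mean of the clock list changed with arrays centred on their medians, with all probe sets of a gene averaged, and without probe sets of related transcripts. Usp2 (0.58) and Per1 (0.47) were highest in animal 5, as were 13 of 19 glucocorticoid target genes, a list that holds Per1 too, of which Angptl4 (0.71), Pdk4 (0.71) and Zbtb16 (0.65) exceeded 0.5. Of 32 immediate-early genes 6 did so (2 without animal 5), with Egr3 at 8.79 ± 0.70 and Atf3 at 7.66 ± 0.70, and 15 were highest in animal 5 and 15 lowest in animal 4.

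Of 25 genes of foreign-compound metabolism, 6 had an SD above 0.5, and their median SD was 0.19. Cyp1a1, the P450 induced by the aryl hydrocarbon receptor, read 9.14, 6.70, 8.93, 6.46 and 6.67. Animals 1 and 3 were thus more than 2 log2 units above the other 3, which lay close together. Among other genes of that receptor, Cyp1b1 read 6.83, 5.77, 5.81, 6.37 and 5.90, and Tiparp 9.30, 8.84, 9.41, 9.47 and 9.36. Cyp1a2 at 1.83 and Ahrr at 2.47 were at the floor, where no order of animals could show. Cyp1b1, Tiparp and Ahrr were named after their values were seen. Whether the receptor had a part in the Cyp1a1 values was not tested. The sulfotransferase Sult1d1 (1.41) and Cyp2e1 (1.09) were lowest in animal 2, as were airway, heart-muscle and several fat genes. Which of these they go with was not tested.

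**Figure D5:**
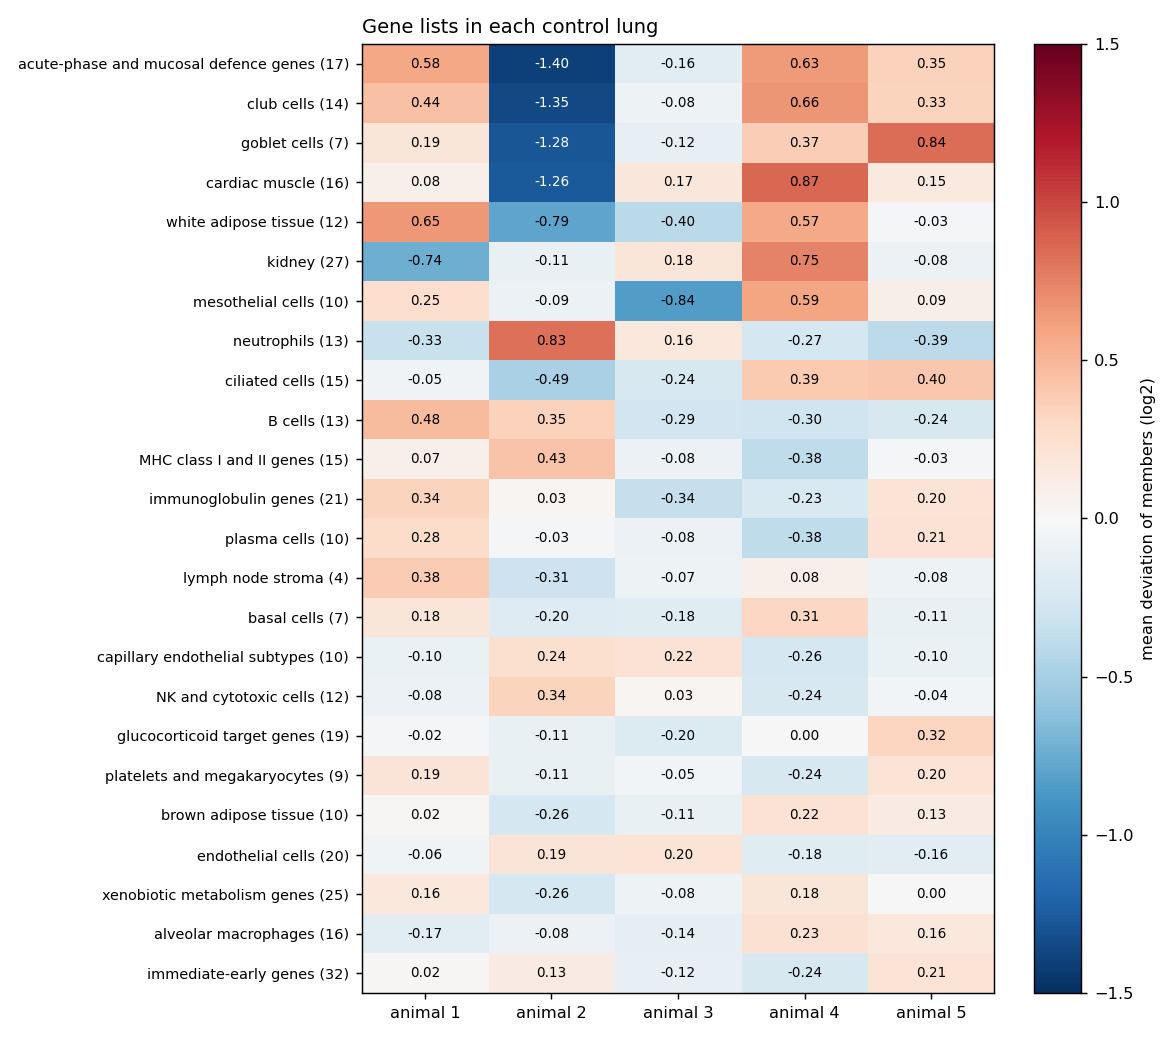
Mean deviation of a list's members from their own 5-animal means (log2, colour and printed value) for the 24 lists with the largest spread, by control animal (columns), with the number of genes in brackets. Animal 2 is at -1.40 for mucosal defence genes, -1.35 for club-cell genes and -1.26 for heart muscle, animal 1 at -0.74 for kidney and animal 3 at -0.84 for mesothelium, while animal 4 is at 0.87 for heart muscle. The means for mucosal defence and club-cell genes are drawn down by few members with a very large spread, such as Bpifa1, which is in both lists. The median SD of members is 0.19 for mucosal defence and 0.20 for club-cell genes, against 0.83 for heart muscle.

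Lists of the alveolar epithelium and of core machinery held few variable genes. The median SD was 0.08 for type 2 genes, 0.14 for type 1 genes and 0.07 for 48 cytosolic ribosomal protein genes. It was 0.12 for 77 subunits of oxidative phosphorylation and 0.13 for 39 proteasome subunits. Over all 18194 genes it was 0.125, and 0.184 over those above the threshold, where SDs fell with level. The median SD was 0.155 between levels of 10 and 12, 0.128 between 12 and 14 and 0.0803 above 14. Median levels were 14.40 for type 2, 14.39 for ribosomal and 13.02 for type 1 genes. They were 12.03 for oxidative phosphorylation and 11.21 for proteasome genes. The SDs of these lists were thus near those of genes of like level. None of the type 1 and type 2 genes had an SD above 0.5. Of the 77 subunits of oxidative phosphorylation, 1 did, with an SD of 0.71. The exception among proteasome genes was Psmb9 (0.54), a subunit of the immunoproteasome, which read 10.71 in animal 2 and 9.20 in animal 4. Endothelial genes had a median SD of 0.27 with 1 of 20 above 0.5, the sialomucin Emcn (0.55), and fibroblast genes 0.23 with 1 of 20, the proteoglycan Dcn (0.75).

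The least variable genes were sought at levels from 8 to 14, where 7014 genes lie. The smallest SD was that of Psmc1, an ATPase of the proteasome cap, at 11.04 with an SD of 0.00645, with 11.04, 11.04, 11.03, 11.04 and 11.04 in animals 1 to 5. Next came the potassium channel Kcnj11 (0.0132), the sorting protein Tsg101 (0.0178), Cytip (0.0183) of leukocytes, the autophagy enzyme Atg3 (0.0197), 2610507B11Rik (0.0204), the kinase Irak1 (0.0216) and the chromatin remodeller Ino80 (0.0229). The glycyl-tRNA synthetase Gars (0.0229), the kinase Cmpk1 (0.0245), Tmem19 (0.0251), the mitochondrial import receptor Tomm70a (0.0255), Lclat1 (0.0259), the basement-membrane collagen Col4a5 (0.0265) and the cytokine receptor Il6st (0.0269) completed the first 15. The 50th gene was Maco1 (0.03974) and the 51st Lsm8 (0.03975), and 4 of the 50 belong to any list used here.

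Membership of this set was unstable. Leaving out 1 animal kept 16 to 25 of the 50, centring each array on its median kept 23 and averaging all probe sets of a gene kept 14. For 30 of the 50 another probe set of the gene was above the threshold, and its SD ran from 0.0317 to 0.418 with a median of 0.117; for 12 it was under 0.1. The smallest SD on a second probe set was that of Cytip, at 11.74 ± 0.03.

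Of 18 classical reference genes, none had an SD above 0.5. The steadiest were Eef1a1, Rplp0 and Rpl13a with SDs of 0.05, followed by Ipo8 and Actb (0.06), Ywhaz (0.07), Gapdh and Tbp (0.10), and Eef2 and Ppib (0.12). B2m had 0.13, Sdha and Polr2a 0.16, Gusb and Tubb5 0.17, Hprt 0.18 and Pgk1 0.21. The transferrin receptor Tfrc was the most variable at 0.40, with 11.08, 10.54, 11.27, 11.45 and 10.63. Animals 2 and 5 were low for Tfrc and animal 4 high. Actb and Gapdh are read here by the control probe sets of the array.

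A single animal stood apart from the other 4 for 681 of the 11312 genes (6.02%), by a gap to its neighbour of over 0.71 of the whole range. Animal 4 was apart for 94 genes on the high side and 121 on the low side, animal 5 for 108 and 70, animal 2 for 78 and 50, animal 3 for 26 and 78, and animal 1 for 20 and 36. Of the 681 genes, 33 also had an SD above 0.5, among them 11 with animal 2 low, which were named after their values were seen. These 11 were Bpifa1, Bpifb1, Scgb3a1, the IgA transporter Pigr, the heart genes Tnni3, Myl7, Myl4, Tcap, Tnnc1 and Actc1, and the heat-shock gene Hspa1b.

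Second probe sets gave a check on the variable genes within the same RNA. Of the 50 most variable genes, 11 had another probe set above the threshold, with SDs of 0.901 to 3.61. In 10 of the 11 it placed the same animal highest and in 10 of the 11 the same animal lowest; over all 4998 genes with such a pair the shares were 51.6% and 48.5%. The 11 were chosen for large SDs, and their second sets had a median SD of 1.63, against 0.186 for the 4998. The order of animals is less certain at a small spread, so the higher shares follow in part from this choice. The second set of Bpifb1 read 12.54, 4.67, 11.22, 13.55 and 12.80, and that of Umod 2.40, 6.01, 7.62, 8.97 and 5.67. That of Car3 read 7.85, 2.74, 4.54, 7.85 and 3.97. The exception was Iglv1, whose second set was highest in animal 2.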

How the data were processed

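Total RNA of 1 lung per animal was hybridised to Affymetrix mouse arrays; replicates are separate animals. The deposited values are on a log2 scale, normalized between arrays by the authors with GCRMA, per the submitters' processing notes; neither a version nor a filter is stated. Of 45101 probe sets, 34958 named 1 gene in the platform annotation, 932 named more and 9211 had no entry. Each of 18194 genes was read by whichever of its probe sets had the largest control mean. The level threshold was the median of all values (4.23). Sets of 50 genes were ranked by mean or SD, the least variable among levels from 8 to 14. Members and gene lists were chosen with earlier results of these data known.

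Named were the 25 highest, 30 most variable and 15 least variable genes, the 3 highest, the lowest and up to 4 most variable members of each list described, all reference and Y-linked genes, and Xist. With 1 group, no test was made. The ranking by SD was tried on simulated data for 5 arrays, where 97.5% of 200 genes given a large SD were among the 200 largest. Every other gene was given the median SD of its level, far below that of the 200, so a high share was nearly assured. In the data SDs run on without such a break, so the simulation does not show how stable membership near a cut is. The ranking of the least variable genes was not simulated. Alternatives were quantile normalization, centring, other thresholds, probe set rules and measures of spread, and each replicate left out. Python 3.11.15, pandas 2.3.3 and NumPy 2.4.6 were used. The arsenic arrays and scan dates were not used here.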

Additional observations from a re-analysis of the deposited data

Results flagged for a closer look

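A single animal stood apart for the genes and lists below, and each figure is the gap from that animal to its nearest neighbour as a share of the range over the 5 animals. Values above 0.71 are given; chance gives about 1 in 20 groups of this size, so single cases carry little weight.

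Animal 2 was apart on the low side for the airway genes Scgb3a1 (0.863), Pigr (0.794), Bpifa1 (0.791) and Bpifb1 (0.775). It was also low for the heart-muscle genes Tnnc1 (0.855), Tnni3 (0.797), Actc1 (0.782), Myl7 (0.778), Myl4 (0.775) and Tcap (0.753), for Hspa1b (0.813) and for Tiparp (0.724). On the high side animal 2 was apart for Cxcl10 (0.928), Ngp (0.886) and Cxcl1 (0.843). The mean of smooth muscle genes (0.884) and that of heat-shock genes (0.721) were lowest in animal 2.

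Animal 4 was apart on the high side for Alb (0.982) and Pck1 (0.785) and on the low side for Fasn (0.879) and for the mean of dendritic-cell genes (0.768). Animal 5 was high for Rps28 (0.746) and Ucp1 (0.713) and low for Ipo8 (0.853), and animal 1 was low for Gars (0.859). For Gars, Ipo8, Rps28 and Ucp1 these gaps are small in size, since their SDs are 0.0229, 0.0582, 0.0392 and 0.0281.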

How the results depend on the processing

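With the 75th percentile of all values (8.16) as the threshold, 6829 genes passed in place of 11312, 150 in place of 552 had an SD above 0.5, 265 in place of 681 had 1 animal apart, and 17 of the 50 most variable genes were kept; fewer genes are ranked there. Averaging all probe sets of a gene kept 27 of the 50 highest and 14 of the 50 least variable genes, and centring kept 23 of the least variable. Leaving out 1 animal kept 32 to 47 of the most variable, lowest without animal 2, and 16 to 25 of the least variable. For the least variable genes the cause was not tested. Quantile normalization kept all 50 of the most variable and 40 of the least variable. Levels of the 450 named genes moved by less than their SD under quantile normalization, centring and each animal left out, while 199 (44.2%) moved further when probe sets were averaged. SDs were called moved when they changed by more than a factor of 1.5. This held for 95 (21.1%) with probe sets averaged, 54 (12.0%) under quantile normalization and 52 (11.6%) under centring. With probe sets averaged, the median levels of 48 of 64 lists (75%) moved by more than the median SD of their members. Without probe sets of related transcripts, 16 list medians (25%) moved. No paired analysis was possible because the results come from no test between groups. Signals near the floor limit what can be said of genes under the threshold.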
